A study of Mus musculus with 18 samples.

Results

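Matrix metalloproteinases and their tissue inhibitors were followed in colonic epithelium that had been cut out by laser microdissection from mice with colitis. The 10 genes were taken by symbol: the collagenase Mmp13, the stromelysins Mmp3 and Mmp10, the gelatinases Mmp2 and Mmp9, the membrane-type enzymes Mmp14 and Mmp15, and the inhibitors Timp1, Timp2 and Timp3. All 10 were found among the 55453 gene names in the count tables.

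Matrix metalloproteinases are zinc-dependent proteases that are made as inactive proenzymes, are activated by removal of a propeptide, and cut collagens, laminins and other matrix proteins. The secreted Timp proteins bind their active sites and block them. In the colon both families are known from wound healing, colitis and tumor invasion, and much of their product comes from stromal and immune cells as well as from epithelium.

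RNA-Seq was performed on 18 libraries in 4 groups. Polypoid dysplasia came from mice fed 8 mg/kg folic acid (8P, n = 5) or no folic acid (0P, n = 4), and non-dysplastic epithelium from mice on the same diets (8ND, n = 5, and 0ND, n = 4). All were female Swiss Webster mice that had received the carcinogen azoxymethane at 7 weeks of age and, from 9 weeks, 4 cycles of dextran sulfate sodium, which injures the colonic lining (2% in the drinking water for 7 days, then plain water for 14 days). The basal chow held 2 mg/kg folic acid, the diets of 0 or 8 mg/kg began at 11 weeks and lasted 16 weeks, and the colons were taken at 27 weeks. The areas were cut from fixed, paraffin-embedded tissue by histology. The labels do not say which libraries came from the same animal or whether a library pooled lesions, so p-values measure the spread between these libraries.

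The libraries held 3500947 to 17048524 counts on genes (median, 10292934). On the first principal component 8ND 1 and 8ND 2 were the non-dysplastic libraries nearest to the dysplastic ones. Levels are given as CPM, counts scaled to the size of the library with TMM factors, which adjust for differences in composition. Differences are log2 fold changes ± SE, and adjusted p-values are from edgeR's quasi-likelihood test with Benjamini-Hochberg adjustment over all 20787 genes tested, with the threshold at 0.05. Epcam, a defining marker of epithelium, stood at 609 ± 127 CPM in 8P, 721 ± 110 in 0P, 638 ± 173 in 8ND and 691 ± 141 in 0ND (SD). Epcam does not stand for all 12 epithelial markers, of which 6 were lower in 0P than in 0ND and 9 in 8P than in 8ND. The 12 summed to 3400 to 4920 CPM in 8P and 3810 to 6140 CPM in 0P. In 8ND they summed to 4200 to 7450 CPM and in 0ND to 4860 to 7350 CPM. The 14 fibroblast and matrix markers summed to between 1150 and 2630 CPM in all libraries, so the microdissected areas were not epithelium alone. In bulk samples of this kind fewer cells of a type and less RNA per cell cannot be told apart.

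Before the values, the promoters of the 3 members on chromosome 9 are shown, because Mmp13, Mmp3 and Mmp10 lie in a single protease cluster and carry the same short motif close to their start sites. The stretches below are the 100 bases before the annotated start (RefSeq, GRCm38.p6), written 5′ to 3′ along the gene, with letters that match TGANTCA, the binding letters of AP-1 factors such as Fos and Jun, in capitals.
Mmp13, chr9:7272414-7272513, + strand: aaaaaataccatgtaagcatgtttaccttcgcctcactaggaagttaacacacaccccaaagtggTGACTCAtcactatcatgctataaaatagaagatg
Mmp3, chr9:7445722-7445821, + strand: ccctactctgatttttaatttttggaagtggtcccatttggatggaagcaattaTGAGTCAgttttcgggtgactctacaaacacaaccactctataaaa
Mmp10, chr9:7502242-7502341, + strand: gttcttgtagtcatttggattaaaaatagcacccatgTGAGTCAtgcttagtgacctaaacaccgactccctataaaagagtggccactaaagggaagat
The motif began at position -35 in Mmp13, at -46 in Mmp3 and at -63 in Mmp10, counted back from the start. Of the 10 members, 8 had a promoter in the table (not Mmp2 or Mmp9), and only these 3 of the 8 held TGANTCA within 250 bases before the start, searched on both strands, compared with 6.75% of 32851 promoter windows of that length. Over the wider family, the letters were found in 8 of 10 genes of the cluster and in 0 of 12 genes outside it. Here a gene counted if any of its windows matched, as did 2113 of all 27025 genes searched. Mmp12 and Mmp7 each had a window with a match and a window without. For Mmp12 the match lay before the start at 7347374 and not before that at 7344397. CTTTGA, the letters bound by TCF/LEF factors, was found in 0 of the 8 members and in 13.8% of all windows, and AGGAAG, the letters of PEA3-type Ets factors, in 5 of the 8 and in 29.5% of all windows. In the 3 promoters shown no AP-1 match overlapped a match to either of the other motifs. These matches describe letters and are not evidence of binding.

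Polypoid dysplasia was compared with non-dysplastic epithelium on each diet. On the diet without folic acid, Mmp10, Mmp9, Mmp13, Mmp14 and Timp1 were higher in 0P than in 0ND and Timp3 was lower, with log2 fold changes of -0.57 (Timp3) to 4.98 (Mmp10). On the diet with 8 mg/kg, Mmp9, Mmp10, Mmp14 and Timp1 were higher in 8P than in 8ND, with log2 fold changes of 0.97 to 1.92. Mmp2, Mmp3, Mmp15 and Timp2 passed the threshold in neither comparison.

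The members, and the gene lists given further below, were chosen with earlier results of these data known. Their shares beside those of all genes are therefore a description. In numbers, 6 of the 10 members passed the threshold in 0P vs 0ND, against 31.6% of all genes tested. 5 of the 10 were higher (15.9% of all genes) and 1 was lower (15.7%). Of the 10, 5 passed and also changed at least 2-fold, against 15.9% of all genes. In 8P vs 8ND, 4 of the 10 passed, all higher, against 28.2% of all genes (13.9% higher and 14.3% lower), and 3 of these changed at least 2-fold, against 12.4%. The median log2 fold change of the members was 1.55 in 0P vs 0ND and 0.34 in 8P vs 8ND, whereas the medians of all tested genes were -0.034 and 0.0019. All 10 members passed the filter on low counts, but Timp1 passed it through the dysplastic libraries: 9 of the 9 dysplastic libraries reached the minimum and 2 of the 9 non-dysplastic ones did, so its inclusion favored a difference.

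**Figure D1:**
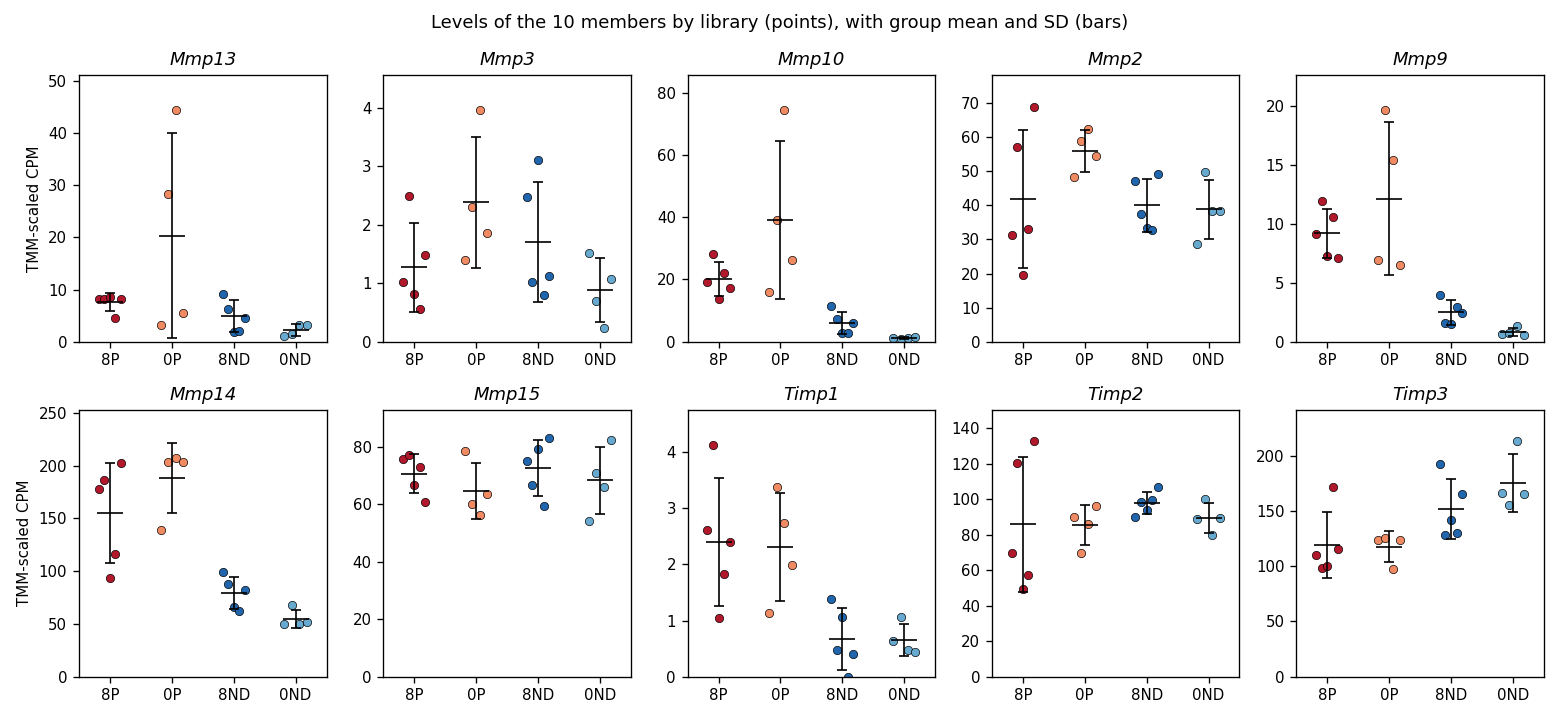
Level of each member in TMM-scaled CPM (vertical axis, linear from 0) for each library (points) in 8P, 0P, 8ND and 0ND, with the group mean (wide bar) and SD. Mmp9 and Mmp10 stood higher in every dysplastic library than in any non-dysplastic one, whereas the groups of Mmp15 and Timp2 overlapped.

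Mmp13, collagenase-3, is the main interstitial collagenase of the mouse and cleaves fibrillar collagens (GENCODE M21 on mm10, chr9:7272514-7283331, + strand). It measured 3.16, 28.2, 44.3 and 5.58 CPM in the 4 0P libraries, against 1.14, 1.41, 3.19 and 3.24 CPM in 0ND. The libraries 0P 2 and 0P 3 stood high, while 0P 1 lay below the highest 0ND library, and the highest 0P value was 14.0 times the lowest. The log2 fold change was 3.17 ± 0.72 (adjusted p = 0.0029). In 8P it measured 8.28, 8.14, 8.67, 4.49 and 8.23 CPM, against 9.24, 6.32, 1.93, 2.13 and 4.61 CPM in 8ND. The 8P libraries were close together and lay within the range of 8ND, and the log2 fold change was 0.61 ± 0.60 (adjusted p = 0.49). With limma-voom the call in 0P vs 0ND was lost (adjusted p = 0.054, with 3.7e-06 to 0.054 over all alternatives).

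Mmp3, stromelysin-1, degrades many matrix proteins and activates other proenzymes of the family (chr9:7445822-7455975, + strand). It was the least abundant member by length in both dysplastic groups and rested on 292 counts over all 18 libraries. It measured 1.41, 2.30, 3.97 and 1.86 CPM in 0P, against 1.52, 0.703, 0.236 and 1.08 CPM in 0ND. The groups overlapped through 0P 1 and 0ND 1, and the log2 fold change of 1.31 ± 0.54 did not pass the threshold (adjusted p = 0.073), although it did without 0ND 1 (adjusted p = 0.042, with 0.042 to 0.34 over all alternatives). It measured 1.02, 2.50, 0.810, 0.561 and 1.48 CPM in 8P, against 2.48, 1.03, 3.10, 0.799 and 1.13 CPM in 8ND. Here the groups overlapped over most of their range (log2 fold change, -0.49 ± 0.48, adjusted p = 0.49).

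Mmp10, stromelysin-2, is a close relative of Mmp3 that is known from the migrating epithelium of wounds (chr9:7502352-7510240, + strand). It measured 16.1, 39.2, 74.3 and 26.3 CPM in 0P, against 1.21, 0.879, 1.30 and 1.40 CPM in 0ND. Each 0P library was above each 0ND library, and the log2 fold change of 4.98 ± 0.53 was the largest of any member in any comparison (adjusted p = 4.6e-06). It measured 19.0, 28.3, 13.8, 22.2 and 17.4 CPM in 8P, against 11.4, 7.27, 2.68, 2.66 and 6.15 CPM in 8ND. Again the groups did not overlap, with 8ND 1 nearest to the dysplastic libraries, and the log2 fold change was 1.71 ± 0.40 (adjusted p = 0.0037). The 0ND values rested on 5 to 19 counts per library.

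Mmp9, gelatinase B, cuts denatured collagen and the type IV collagen of basement membranes, and neutrophils store it in granules (chr2:164940780-164955850, + strand). It measured 6.93, 19.6, 15.5 and 6.51 CPM in 0P, against 0.699, 0.703, 1.30 and 0.540 CPM in 0ND. The groups did not overlap, although the 0P libraries were spread widely, with a log2 fold change of 3.89 ± 0.43 (adjusted p = 3.3e-06). It measured 9.11, 11.9, 7.29, 10.6 and 7.12 CPM in 8P, against 4.00, 1.58, 1.5, 2.93 and 2.46 CPM in 8ND. The groups did not overlap, and the log2 fold change was 1.92 ± 0.34 (adjusted p = 0.00036). In 0ND the values of Mmp9 rested on 4 to 11 counts per library.

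Because neutrophils carry Mmp9, the 11 neutrophil markers were read beside it. They summed to 26.6 to 87.1 CPM in 8P and 30.4 to 65.9 CPM in 0P, against 16.2 to 25.1 CPM in 8ND and 20.5 to 32.1 CPM in 0ND. Of the 7 that could be tested, 5 were higher and 1 was lower in both 0P vs 0ND and 8P vs 8ND. Of these, S100a9, S100a8 and Ltf averaged less than the filter's minimum of 0.972 CPM in both non-dysplastic groups, so their inclusion favored a difference, as for Timp1. Those that were higher included S100a9, a calcium-binding protein of granulocytes, which averaged 4.86 ± 4.90 CPM in 8P and 3.56 ± 2.76 CPM in 0P, against 0.742 ± 0.258 CPM in 8ND and 0.105 ± 0.0746 CPM in 0ND (SD). Ly6g, the surface marker that defines mouse neutrophils, was the 1 that was lower, Mpo, the granule peroxidase, did not pass, and Elane had 0 counts in every library. Within the dysplastic groups the libraries with the highest neutrophil sum were 8P 2 and 0P 4, and these had the highest Mmp9 level of 8P and the lowest of 0P. The part of neutrophils in the Mmp9 result was not tested.

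Mmp2, gelatinase A, is made mainly by fibroblasts and cuts the same substrates as Mmp9 (chr8:92827291-92853420, + strand). It measured 48.3, 58.9, 62.5 and 54.5 CPM in 0P, against 28.6, 49.9, 38.4 and 38.3 CPM in 0ND. Only 0ND 2 reached the 0P range, yet the log2 fold change of 0.54 ± 0.29 did not pass (adjusted p = 0.17). A fit of the 0P and 0ND libraries alone did call it (adjusted p = 0.029, with 0.029 to 0.93 over all alternatives), and with the fibroblast and matrix level as a covariate the log2 fold change was 0.03. It measured 31.2, 57.0, 19.6, 33.2 and 68.7 CPM in 8P, against 47.0, 37.5, 33.5, 32.7 and 49.2 CPM in 8ND. The 8P libraries lay on both sides of 8ND, and the 2 highest, 8P 5 and 8P 2, also had the highest fibroblast and matrix sums of 8P (2630 and 2140 CPM). The log2 fold change was 0.06 ± 0.26 (adjusted p = 0.89).

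Mmp14, the first membrane-type metalloproteinase, cuts collagen at the cell surface and activates the Mmp2 proenzyme (chr14:54431612-54445364, + strand). It measured 139, 203, 208 and 204 CPM in 0P, against 49.6, 67.5, 49.6 and 51.4 CPM in 0ND. Even the lowest 0P library was above the highest 0ND library, and the log2 fold change was 1.79 ± 0.22 (adjusted p = 9.6e-06). It measured 177, 187, 93.6, 116 and 202 CPM in 8P, against 98.9, 87.7, 65.8, 61.8 and 81.8 CPM in 8ND. The groups touched at 8P 3 and 8ND 1, and the log2 fold change was 0.97 ± 0.19 (adjusted p = 0.0010). Mmp14 kept its call in both comparisons under every alternative that was run, with log2 fold changes of 1.48 to 1.91 and 0.85 to 1.15.

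Mmp15, a second membrane-type enzyme, varied little between the groups (chr8:95352268-95375080, + strand). It averaged 70.8 ± 6.82 CPM in 8P and 64.8 ± 9.81 CPM in 0P, against 72.7 ± 9.65 CPM in 8ND and 68.4 ± 11.8 CPM in 0ND (SD). All 4 groups overlapped. The log2 fold change was -0.08 ± 0.14 in 0P vs 0ND and -0.04 ± 0.12 in 8P vs 8ND, and the 95% intervals (-0.37 to 0.22 and -0.30 to 0.22) leave room for small differences only.

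Timp1, a secreted inhibitor that is induced by inflammatory cytokines, was scarce (chrX:20870166-20874735, + strand, 307 counts in all). It measured 1.14, 3.38, 2.74 and 1.99 CPM in 0P, against 0.635, 1.05, 0.472 and 0.432 CPM in 0ND. The groups were apart, by a narrow gap between 0P 1 and 0ND 2, and the log2 fold change was 1.86 ± 0.54 (adjusted p = 0.013). With the fibroblast and matrix level as a covariate this call was lost (adjusted p = 0.072, with 0.0034 to 0.072 over all alternatives). It measured 2.61, 4.12, 1.05, 1.82 and 2.41 CPM in 8P, against 1.38, 0.474, 1.07, 0 and 0.410 CPM in 8ND. The 0 in 8ND 4, the shallowest library, allows a level of up to 0.799 CPM, counting error only. The groups overlapped at 8P 3, and the log2 fold change was 1.75 ± 0.48 (adjusted p = 0.010). Timp1 lies inside Syn1, a neuronal gene on the opposite strand that had 182 counts in all. The strand setting of the counting is not given in the sources used here, so reads of this pair may not be fully separated.

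Timp2 inhibits several metalloproteinases and also joins Mmp14 and the Mmp2 proenzyme at the cell surface (chr11:118301069-118355740, - strand). It measured 89.9, 69.8, 85.9 and 96.0 CPM in 0P, against 88.5, 100, 79.6 and 89.3 CPM in 0ND, and 69.7, 120, 49.2, 57.3 and 132 CPM in 8P, against 90.0, 98.2, 93.9, 99.3 and 107 CPM in 8ND. The 8P libraries were spread far more widely than the others and enclosed the whole 8ND range. The log2 fold change was -0.06 ± 0.23 in 0P vs 0ND and -0.19 ± 0.21 in 8P vs 8ND (adjusted p = 0.87 and 0.54). With the fibroblast and matrix level as a covariate, Timp2 was called lower in 0P than in 0ND (log2 fold change, -0.50, adjusted p = 0.010, with 0.010 to 1.0 over all alternatives). Timp2, with 16813 counts in all, shares part of its span with Cep295nl on the same strand, which had 751.

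Timp3, which binds to the matrix and also inhibits ADAM and ADAMTS proteases, went the other way (chr10:86300372-86349506, + strand). It measured 124, 126, 97.4 and 124 CPM in 0P, against 166, 155, 214 and 165 CPM in 0ND. Each 0P library was below each 0ND library, and the log2 fold change was -0.57 ± 0.17 (adjusted p = 0.015). This call was lost without 0ND 3 (adjusted p = 0.063) and without 0P 3 (adjusted p = 0.074), with 0.0066 to 0.074 over all alternatives. It measured 111, 99.0, 101, 172 and 116 CPM in 8P, against 193, 129, 142, 130 and 166 CPM in 8ND. Here 4 of the 5 8P libraries were below all of 8ND, but 8P 4 was not, and the log2 fold change of -0.35 ± 0.15 did not pass (adjusted p = 0.099). Without 8P 4 it did (log2 fold change, -0.51, adjusted p = 0.0080, with 0.0080 to 0.26 over all alternatives). Timp3 lies inside Syn3 on the opposite strand (26695 counts in all for Timp3, against 1987 for Syn3).

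Counted by library, the groups did not overlap for 5 of the 10 members in 0P vs 0ND (Mmp9, Mmp10, Mmp14, Timp1 and Timp3), against 32.3% of all genes tested. In 8P vs 8ND this was so for 2 (Mmp9 and Mmp10), against 17.2%.

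**Figure D2:**
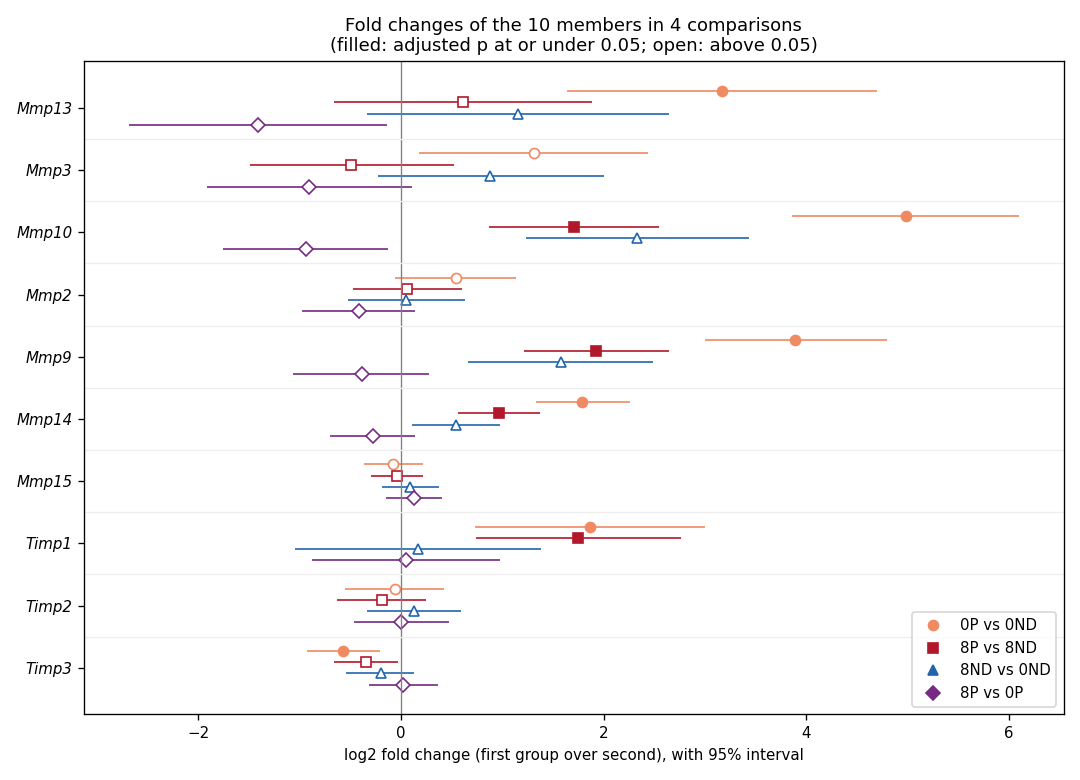
Log2 fold change of each member (horizontal axis, first group over second) with its 95% interval in 4 comparisons, filled where the adjusted p was at or under 0.05 and open where it was above. The filled points are the 6 calls of 0P vs 0ND and the 4 calls of 8P vs 8ND, and every point of the comparisons between diets is open.

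The diets were compared within each tissue. In non-dysplastic epithelium, Mmp9 and Mmp10 stood higher in each of the 5 8ND libraries than in any of the 4 0ND libraries, but neither passed the threshold over all genes. In dysplasia no member separated the diets, and most proteases had lower averages in 8P than in 0P.

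In 8ND vs 0ND, 0 of the 10 members passed the edgeR test, against 0.0481% of all genes (10 of 20787). An unadjusted p under 0.05 was found for 3 members (Mmp9, Mmp10 and Mmp14) and for 2059 genes in all. Mmp10 averaged 6.04 ± 3.66 CPM in 8ND and 1.20 ± 0.227 CPM in 0ND (SD), a log2 fold change of 2.33 ± 0.52 with a 95% interval of 1.23 to 3.43 (adjusted p = 0.091). Mmp9 averaged 2.49 ± 1.03 CPM in 8ND, against 0.810 ± 0.334 CPM in 0ND, a log2 fold change of 1.58 ± 0.44 (adjusted p = 0.16). The 0ND level rested on few counts per library for both genes, 4 to 11 for Mmp9 and 5 to 19 for Mmp10. Mmp14 stood at 79.2 ± 15.4 CPM in 8ND, against 54.5 ± 8.72 CPM in 0ND, and the log2 fold change was 0.54 ± 0.21 (adjusted p = 0.36).

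These 2 were also the only members whose libraries did not overlap in 8ND vs 0ND, 2 of 10 against 3.94% of all genes. DESeq2 called both (adjusted p = 0.00036 for Mmp10 and 0.037 for Mmp9), limma-voom called no member, and edgeR called Mmp10 once 8ND 3 was left out (adjusted p = 0.025). Over all genes, DESeq2 called 313 of 20364 and edgeR without 8ND 3 called 157 of 20823. The main fit called 10 of 20787. Among the 8ND libraries, 8ND 1 had the highest level of Mmp9, Mmp10, Mmp13 and Mmp14, and it was among the libraries nearest to dysplasia on the first principal component. Without 8ND 1 and 8ND 2 the log2 fold change of Mmp10 was 1.70 (adjusted p = 0.57). Over all alternatives the adjusted p was 0.00036 to 0.57 for Mmp10 and 0.037 to 0.59 for Mmp9. The other members had log2 fold changes of -0.20 (Timp3) to 1.15 (Mmp13) and adjusted p-values of 0.65 or more.

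In 8P vs 0P, 0 of the 10 members passed, as did 0.0% of all genes tested by edgeR. Unadjusted p-values under 0.05 were found for 2 members and for 2093 genes, and DESeq2 and limma-voom called 0 members as well. The first was Mmp13, which averaged 7.56 ± 1.73 CPM in 8P against 20.3 ± 19.6 CPM in 0P (log2 fold change, -1.41 ± 0.60, adjusted p = 0.47). The other was Mmp10, which averaged 20.2 ± 5.47 CPM in 8P against 39.0 ± 25.4 CPM in 0P (log2 fold change, -0.94 ± 0.39, adjusted p = 0.47). Both differences came largely from 0P 2 and 0P 3, and no member had groups that did not overlap, against 2.25% of all genes. For Timp1, Timp2 and Timp3 the log2 fold changes were 0.05, 0.00 and 0.02, with 95% intervals of -0.88 to 0.98, -0.46 to 0.47 and -0.32 to 0.36.

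Whether the difference between dysplasia and non-dysplastic epithelium itself changed with the diet was tested as an interaction, the log2 fold change of 8P vs 8ND minus that of 0P vs 0ND. No member passed (0 of 10, and 0.0% of all genes), while 5 members and 2163 genes had an unadjusted p under 0.05. Mmp10 had the largest value, -3.27 ± 0.65 with a 95% interval of -4.64 to -1.90 (adjusted p = 0.22), followed by Mmp13 (-2.56 ± 0.93, adjusted p = 0.37), Mmp9 (-1.97 ± 0.54, adjusted p = 0.31), Mmp3 (-1.79 ± 0.72, adjusted p = 0.42) and Mmp14 (-0.82 ± 0.29, adjusted p = 0.35). All 5 were negative. For Mmp10, Mmp13, Mmp9 and Mmp14 the log2 fold change between the tissues was positive on both diets and smaller at 8 mg/kg. For Mmp3 its sign differed, with 1.31 in 0P vs 0ND and -0.49 in 8P vs 8ND. DESeq2 called Mmp10 (adjusted p = 0.00054), limma-voom called 0 members, and edgeR called Mmp10 without 8ND 3 (adjusted p = 0.037), with 0.00054 to 0.51 over all alternatives. Over all genes, DESeq2 called 81 of 16760 in the interaction and edgeR without 8ND 3 called 26 of 20823. The interaction and the 4 pairwise comparisons share their libraries, so they are not separate evidence.

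Levels were compared between members per kilobase of annotated exon, which puts genes of different length on a common scale. Mmp14 stood highest in dysplasia and Timp2 and Timp3 in non-dysplastic epithelium, while Timp1 was among the scarcer members in all groups. In 8P Mmp14 (26.1 ± 7.96 CPM per kb, SD) and Timp2 (22.0 ± 9.75) led, and the 6 most abundant members overlapped as neighbors down to Mmp10 (11.7 ± 3.17). In 0P Mmp14 came first with 31.6 ± 5.55 CPM per kb, then Mmp10 (22.6 ± 14.7), Timp2 (21.9 ± 2.88), Mmp2 (16.6 ± 1.82) and Timp3 (14.5 ± 1.69), each overlapping the next. In 8ND the first 5 were Timp2 (25.0 ± 1.59), Timp3 (18.7 ± 3.38), Mmp15 (13.5 ± 1.79), Mmp14 (13.3 ± 2.59) and Mmp2 (11.9 ± 2.27), of which only Timp3 and Mmp15 did not overlap as neighbors. In 0ND the order was Timp2 (22.9 ± 2.15) and Timp3 (21.5 ± 3.23), whose ranges overlapped, then, clear of Timp3, Mmp15 (12.7 ± 2.18), Mmp2 (11.5 ± 2.59) and Mmp14 (9.15 ± 1.46), which overlapped as neighbors. The other 5 members averaged 0.84 CPM per kb or less in 0ND.

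Summed by length over the 7 proteases, the level was 47.7 to 86.8 CPM per kb in 8P and 65.5 to 130 CPM per kb in 0P, against 34.7 to 57.1 CPM per kb in 8ND and 29.0 to 40.9 CPM per kb in 0ND. The 3 inhibitors summed to 26.2 to 51.0 CPM per kb in 8P and 37.1 to 42.1 in 0P, against 41.4 to 48.4 in 8ND and 43.7 to 47.2 in 0ND. The ratio of the proteases to the inhibitors was 1.60 to 2.04 in 8P and 1.65 to 3.51 in 0P, against 0.837 to 1.18 in 8ND and 0.661 to 0.890 in 0ND. No dysplastic library had a ratio as low as that of any non-dysplastic library. This is a ratio of transcript levels over the listed genes and was not tested, since the genes were chosen with results known and neither activation nor protein was measured.

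**Figure D3:**
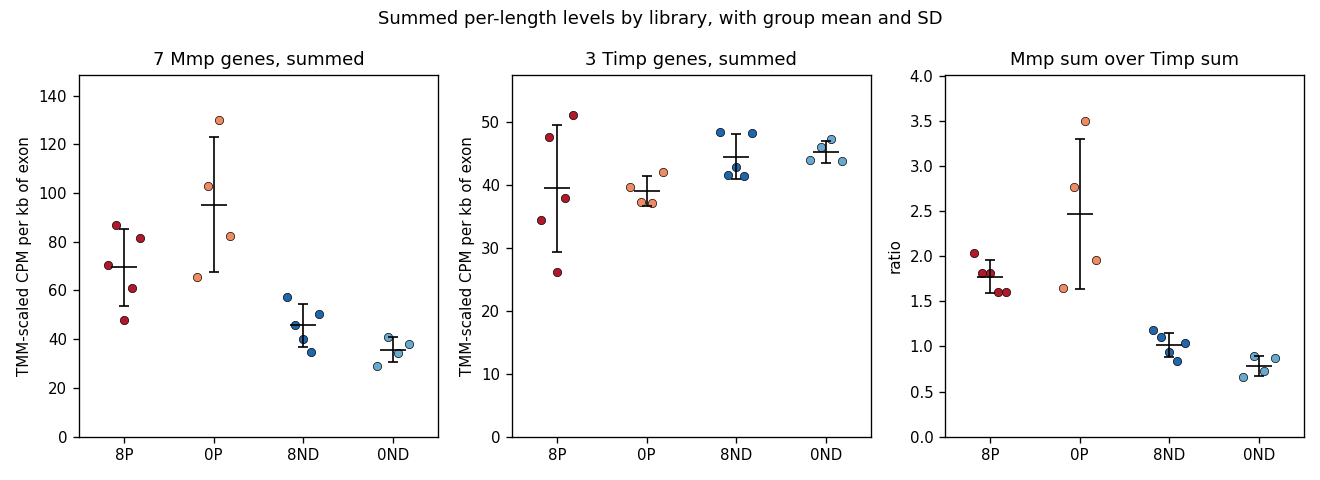
Summed TMM-scaled CPM per kb of exon for the 7 Mmp genes (left) and the 3 Timp genes (middle), and their ratio (right), for each library with group mean and SD. The ratio was between 1.60 and 3.51 in the dysplastic libraries and between 0.661 and 1.18 in the non-dysplastic ones.

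The family cluster on chromosome 9 holds 10 Mmp genes within 427.1 kb (chr9:7272514-7699585), in the order Mmp13, Mmp12, Mmp1b, Mmp3, Mmp1a, Mmp10, Mmp8, Mmp27, Mmp20 and Mmp7. Next to the members, Mmp7 (matrilysin), a small epithelial protease that activates antimicrobial peptides in Paneth cells, averaged 84.0 ± 29.1 CPM in 8P and 84.9 ± 36.9 CPM in 0P, against 15.1 ± 14.0 CPM in 8ND and 1.19 ± 1.19 CPM in 0ND (SD). Its log2 fold change was 5.91 ± 0.83 in 0P vs 0ND and 2.46 ± 0.59 in 8P vs 8ND (adjusted p = 7.1e-05 and 0.0056), and the interaction was -3.46 ± 0.98 (adjusted p = 0.32). Mmp12, the macrophage elastase, averaged 11.4 ± 2.88 CPM in 8P and 11.4 ± 0.580 CPM in 0P, against 6.35 ± 1.39 CPM in 8ND and 6.08 ± 0.954 CPM in 0ND. The log2 fold change of Mmp12 was 0.85 ± 0.19 in 8P vs 8ND and 0.92 ± 0.21 in 0P vs 0ND. Mmp1a and Mmp1b, the mouse relatives of human collagenase-1, had 4 and 5 counts in all.

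**Figure D4:**
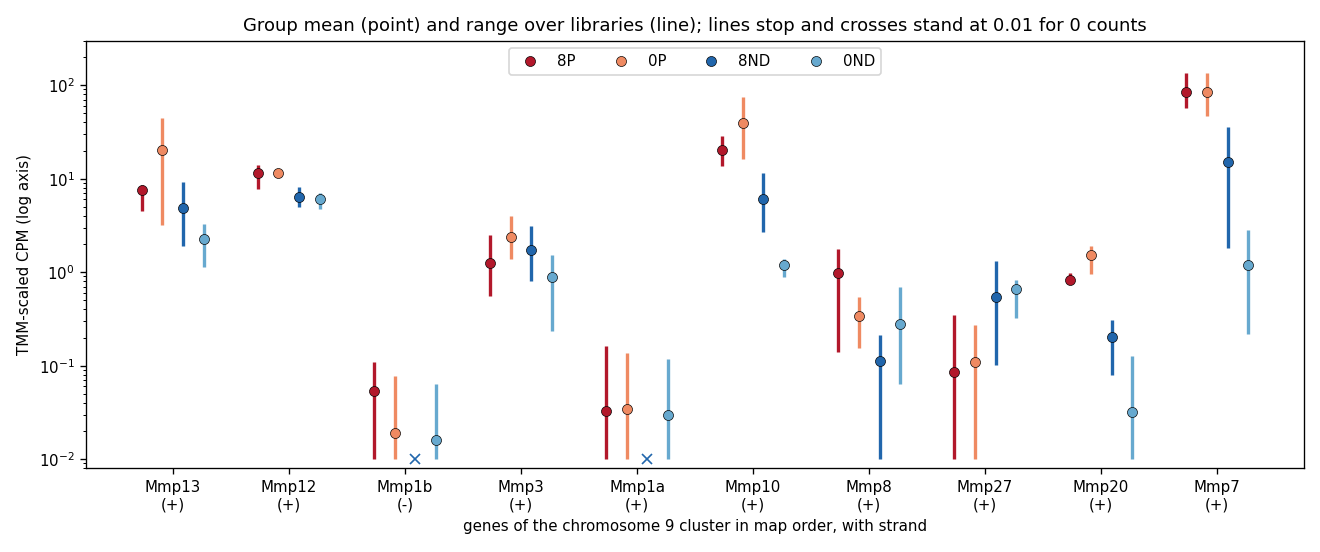
Group mean (points) and range over libraries (lines) of TMM-scaled CPM on a log axis for the 10 genes of the chromosome 9 cluster in map order, for 8P, 0P, 8ND and 0ND. Mmp13, Mmp12, Mmp3, Mmp10, Mmp20 and Mmp7 have their lowest group mean in 0ND, while Mmp1a and Mmp1b are near 0 counts throughout (crosses stand for groups at 0, and lines stop at 0.01 for libraries at 0).

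Of the other family members, 17 genes were listed and 10 could be tested. In both comparisons of the tissues 40.0% of these passed, against 31.6% of all genes in 0P vs 0ND and 28.2% in 8P vs 8ND. In 0P vs 0ND 3 were higher, namely Mmp7, Mmp12 and Mmp11, a stromal enzyme known as stromelysin-3 (log2 fold change, 0.67 ± 0.25, adjusted p = 0.044). Timp4, the remaining inhibitor, was lower (-2.22 ± 0.47, adjusted p = 0.0012). In 8P vs 8ND Mmp7 and Mmp12 were higher, and Mmp16, a membrane-type enzyme, and Timp4 were lower (-1.82 ± 0.36 and -2.13 ± 0.45, adjusted p = 0.00080 and 0.0016). Timp4 averaged 0.439 CPM in 8P and 0.731 CPM in 0P, against 1.86 CPM in 8ND and 3.41 CPM in 0ND. Both dysplastic averages were under the filter's minimum of 0.972 CPM, so the inclusion of Timp4 favored a difference. Mmp17, Mmp19, Mmp23, Mmp25 and Mmp28 passed in neither comparison. The list's median log2 fold change was 0.18 in 0P vs 0ND and -0.16 in 8P vs 8ND.

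Among ADAM and ADAMTS proteases, which shed cell surface proteins or cut proteoglycans and are further targets of Timp3, 30 of 31 could be tested. In 0P vs 0ND 12 were higher and 7 lower, with a median log2 fold change of 0.24, and in 8P vs 8ND 8 were higher and 8 lower, with a median of -0.19. These are 63.3% and 53.3% of the list, against 31.6% and 28.2% of all genes. Adamts17 averaged 47.5 ± 12.6 CPM in 8P and 49.6 ± 11.2 CPM in 0P, against 15.4 ± 4.77 CPM in 8ND and 5.89 ± 1.17 CPM in 0ND. Adam33 averaged 2.92 ± 0.730 CPM in 8P and 3.14 ± 0.623 CPM in 0P, against 11.3 ± 2.91 CPM in 8ND and 18.7 ± 7.13 CPM in 0ND. The 5 genes with the smallest p in 0P vs 0ND were Adamts17 (log2 fold change, 3.07), Adam33 (-2.56), Adamts12 (1.85), Adamts7 (1.95) and Adam12 (3.05). In 8P vs 8ND they were Adam23 (-1.59), Adamts12 (1.55), Adam33 (-1.94), Adam10 (0.68) and Adamts16 (3.02), of which Adam10 is a major sheddase of Notch and E-cadherin. Adamts16 averaged 6.8 CPM in 8P and 4.91 CPM in 0P, against 0.74 CPM in 8ND and 0.291 CPM in 0ND. Both non-dysplastic averages were under the filter's minimum of 0.972 CPM, so the inclusion of Adamts16 favored a difference, as for Timp1.

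The plasminogen system, which activates metalloproteinases, was listed with other activators, inhibitors and surface partners, and 27 of its 30 genes could be tested. In 0P vs 0ND 13 were higher and 7 lower, with a median log2 fold change of 0.54, and in 8P vs 8ND 8 were higher and 7 lower, with a median of 0.13. The share called was 74.1% in 0P vs 0ND and 55.6% in 8P vs 8ND, beside the same shares of all genes. Plat, tissue plasminogen activator, averaged 53.8 ± 17.7 CPM in 8P and 136 ± 63.1 CPM in 0P, against 9.98 ± 5.21 CPM in 8ND and 3.60 ± 0.799 CPM in 0ND, with log2 fold changes of 5.26 ± 0.48 in 0P vs 0ND and 2.41 ± 0.38 in 8P vs 8ND. The others with the smallest p in 0P vs 0ND were Thbs1 (2.30), which encodes thrombospondin 1, the hyaluronan receptor Cd44 (1.49), which docks Mmp9 at the cell surface, Lcn2 (5.80), whose product binds Mmp9, and the proteoglycan gene Spock2 (5.87). In 8P vs 8ND Thbs1 (1.33) and Cd44 (0.86) were higher and the serine protease Prss8 (-1.14) was lower. Reck, a membrane-anchored inhibitor of Mmp2, Mmp9 and Mmp14, was also lower, and averaged 3.44 ± 1.13 CPM in 8P, against 6.78 ± 1.48 CPM in 8ND (log2 fold change, -0.98 ± 0.21, adjusted p = 0.0018). None of these 3 lists had a gene past the threshold in 8ND vs 0ND, in 8P vs 0P or in the interaction. In 8ND vs 0ND the genes with the smallest p of their list were Mmp7 (log2 fold change, 3.44, adjusted p = 0.11), Adamts17 (1.38, adjusted p = 0.069) and Cd44 (0.80, adjusted p = 0.11). In 8P vs 0P they were Mmp16 (-0.98, adjusted p = 0.46), Adamts1 (-0.83, adjusted p = 0.46) and Plau, the gene of urokinase (-1.42, adjusted p = 0.43).

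Markers of other cell types were compared between the tissues in the same way, beside 31.6% of all genes called in 0P vs 0ND and 28.2% in 8P vs 8ND. In 0P vs 0ND 6 of the 14 fibroblast and matrix markers were higher and 5 lower, in 8P vs 8ND 1 was higher and 3 lower, and their sums were 1150 to 2630 CPM in 8P and 1930 to 2420 CPM in 0P, against 1560 to 2090 CPM in 8ND and 1400 to 1830 CPM in 0ND. Of 11 macrophage markers 3 were higher in 0P vs 0ND, and in 8P vs 8ND 1 was higher and 1 lower, with sums of 304 to 544 CPM in 8P and 276 to 473 CPM in 0P, against 276 to 402 CPM in 8ND and 289 to 366 CPM in 0ND. The share of macrophage markers called (27.3% and 18.2%) was below that of all genes, and the share of fibroblast and matrix markers called in 8P vs 8ND (28.6%) was close to it. Mast cell markers, of which 9 of 10 were tested, had 7 higher and 1 lower in 0P vs 0ND and 5 higher and 1 lower in 8P vs 8ND, and their sums were 60.3 to 415 CPM in 8P and 62.4 to 191 CPM in 0P, against 59.7 to 105 CPM in 8ND and 53.0 to 81.9 CPM in 0ND. Smooth muscle markers were lower for 8 of 9 in 0P vs 0ND and for 9 of 9 in 8P vs 8ND, and epithelial markers for 6 and 9 of 12, with 1 higher in each comparison. Of 9 B and plasma cell markers 3 were lower in 0P vs 0ND and 5 in 8P vs 8ND, with none higher, and their sums were 485 to 3200 CPM in 8P and 1010 to 1590 CPM in 0P, against 3590 to 10700 CPM in 8ND and 2440 to 5290 CPM in 0ND. Of 9 endothelial markers 1 was higher and 2 lower in 0P vs 0ND and 3 were lower in 8P vs 8ND, with sums of 95.3 to 156 CPM in 8P and 159 to 196 CPM in 0P, against 154 to 200 CPM in 8ND and 156 to 208 CPM in 0ND. Of 8 T and NK cell markers tested 2 and 1 were lower, with sums of 38.3 to 55.9 CPM in 8P and 36.3 to 64.3 CPM in 0P, against 49.2 to 65.8 CPM in 8ND and 44.0 to 87.0 CPM in 0ND. The share of endothelial markers called, 33.3% in both comparisons, was close to that of all genes. For B and plasma cell markers it was 33.3% in 0P vs 0ND, also close, and 55.6% in 8P vs 8ND. For T and NK cell markers it was 25.0% and 12.5%, below that of all genes. Of 3 enteric glia markers tested 1 was higher and 1 lower in both comparisons, and the 7 listed summed to 25.3 to 36.6 CPM in 8P and 24 to 34.4 CPM in 0P, against 35.2 to 56.4 CPM in 8ND and 46.2 to 55.0 CPM in 0ND. Apart from the neutrophil markers Elane and Camp, no listed marker was at 0 in every library of a group. The part of these cell types in the member results was not tested. The covariate in the fits given above was the summed level of the 14 fibroblast and matrix markers in the same libraries. Those fits cannot separate a change in the number of fibroblasts from a change in RNA per cell.

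**Figure D5:**
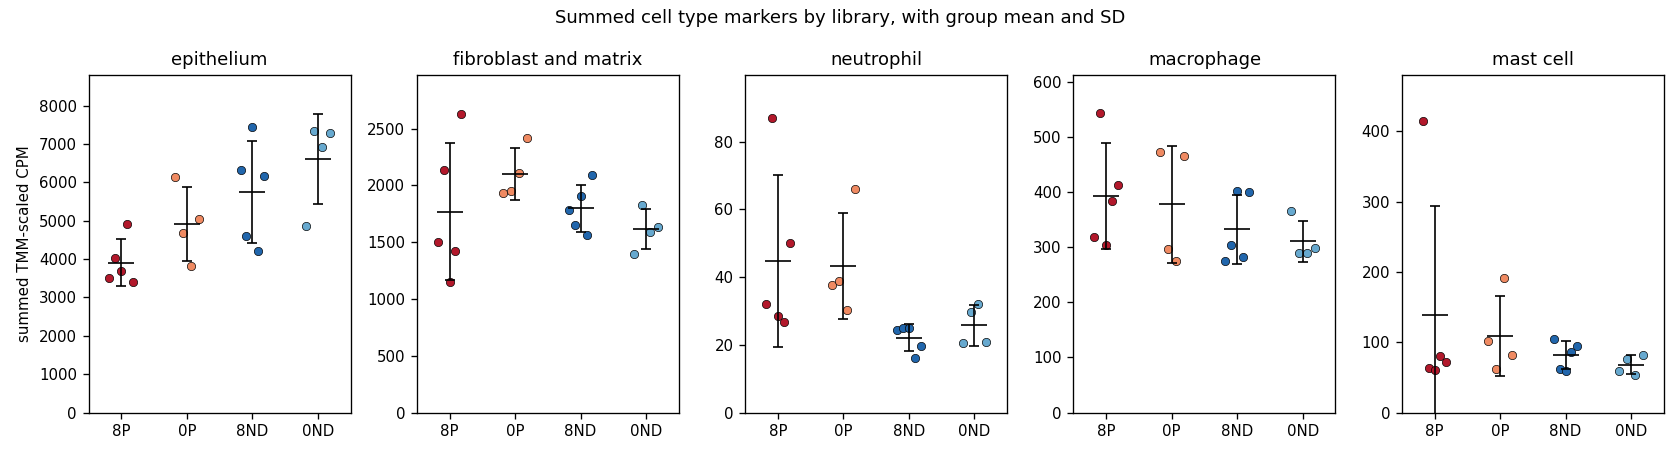
Summed TMM-scaled CPM of the marker lists of 5 cell types for each library (points) in 8P, 0P, 8ND and 0ND, with group mean and SD. Neutrophil sums reach 87.1 CPM in 8P and 65.9 CPM in 0P, against 25.1 CPM in 8ND and 32.1 CPM in 0ND, and 8P 1 stands apart with a mast cell sum of 415 CPM.

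The genes whose levels ran most like those of each member over the 18 libraries were taken among 11530 genes with a mean of at least 5 CPM, as a description. For members that differed between the tissues, that shared difference can raise these values. Mmp2, Mmp3, Mmp15 and Timp2 passed the threshold in neither comparison of the tissues. For Mmp9 they were Fxyd3, Tnfrsf12a and Aaas (Spearman's rho, 0.97, 0.97 and 0.95), and for Mmp10 Zfp184, Cldn4 and Rem2 (0.97 each). For Mmp14 they were Ifitm3, Vgll4 and Ptk7 (0.98, 0.98 and 0.97), for Mmp13 Fermt1, Spry4 and Nras (0.93, 0.89 and 0.88), and for Mmp3 Ctsz, Gatad2a and Snn (0.83, 0.82 and 0.81). Mmp2 ran with Fstl1, Col5a1 and Lamb2 (0.86, 0.83 and 0.81), genes of matrix proteins or of a secreted glycoprotein, and Mmp15 with Prrg2, Thap11 and Prdm2 (0.80, 0.79 and 0.79). The inhibitors had different partners. Timp1 ran with Socs3, a feedback inhibitor of cytokine signaling, Ppp1r8 and Adam8 (0.94, 0.92 and 0.92), Timp2 with Loxl1 (0.86), and Timp3 with Gcnt1, Slc4a4 and Efnb2 (0.88, 0.87 and 0.87).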

How the data were processed

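Gene expression was measured by RNA-Seq in 18 libraries, each prepared from 40 ng RNA with a strand-preserving kit. The authors deposited raw counts of reads per gene, as whole numbers. According to the labels and the methods of the study, Bowtie was used for alignment (mm10) and HTSeq for counting, with versions and strand option not given in the sources used here. Lines of the tables that name no gene were left out of library sizes and tests (22.0 to 40.7% of reads on no gene, 40.1 to 62.2% without a unique alignment and 0.220 to 0.384% ambiguous), and counts include PCR copies.

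Groups were taken from the sample titles. In R 4.3.3, edgeR 4.0.16 was used with filterByExpr (minimum count, 10), TMM scaling and 1 robust quasi-likelihood fit of all 18 libraries with a mean per group, with Benjamini-Hochberg adjustment over 20787 genes. The SE was obtained from the log2 fold change and the root of its F statistic. DESeq2 1.42.0, which the study used, and limma-voom (limma 3.58.1) were alternatives, together with RLE and no scaling, no filter, a minimum count of 50, the compared groups alone, each library left out, 8ND 1 and 8ND 2 left out, a replicate block and the fibroblast and matrix level as a covariate.

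The members and lists were chosen with earlier results of these data known. All members were named in every comparison. Of each list up to 5 genes with the smallest p past the threshold in 0P vs 0ND and 8P vs 8ND were named, or else the 1 with the smallest p in the comparisons of diets. Marker sums are TMM-scaled CPM. Coordinates are those of GENCODE M21 on mm10, in which all 10 members were found, exon lengths are unions over annotated transcripts, and promoters are from RefSeq, GRCm38.p6. A gene among those most like Timp2 is not reported here.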

Additional observations from a re-analysis of the deposited data

Results flagged for a closer look

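Each member was checked in each group for a library far from the others of its group, by the share of the group's range taken up by the gap to the nearest library. Of 40 such checks, 5 stood out, and chance gives about 1 in 20. Mmp13 in 8P 4 was low, at 4.49 CPM with the next at 8.14 CPM (gap, 0.874 of the range). Timp3 in the same library was high, at 172 CPM with the next at 116 CPM (0.766), and this library decided the call of Timp3 in 8P vs 8ND. Timp3 in 0P 3 was low, at 97.4 CPM with the next at 124 CPM (0.930). Mmp14 in 0P 1 was low, at 139 CPM with the next at 203 CPM (0.938), and 0P 1 was the dysplastic library nearest to the non-dysplastic ones on the first principal component. Mmp14 in 0ND 2 was high, at 67.5 CPM with the next at 51.4 CPM (0.898). No member passed the interaction test of edgeR.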

How the results depend on the processing

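The number of members past the threshold in 0P vs 0ND was 5 to 7 and in 8P vs 8ND 3 to 5 under every alternative that was run, with the replicate block at 6 and 4. Under a minimum count of 50, Mmp3 and Timp1 were not tested. In 8ND vs 0ND the count was 0, except that DESeq2 gave 2 and the fits that left out a library gave 0 to 1. In the interaction it was 0, except that DESeq2 gave 1 and the fits that left out a library gave 0 to 1. In 8P vs 0P it was 0 in all. Replicate numbers were not used as pairs in the main fit, because the labels do not say whether they mark the same animal. Correlations of same-numbered libraries between P and ND were -0.079 to 0.273. The libraries 0ND 1, 0ND 3, 8ND 1 and 8ND 5 correlated best with their own number, and the others did not. These values cannot decide whether the samples are paired. Only members whose main value was not called changed sign. Mmp2 in 8P vs 8ND had -0.09 with limma-voom and -0.04 with the replicate block, and -0.19 to 0.24 with a library left out. In 8ND vs 0ND it had -0.00 without 8ND 1 and 8ND 2, -0.08 with the block, -0.16 with the covariate, and -0.07 to 0.19 with a library left out, and in the interaction 0.03 with the covariate. Mmp15 in 8P vs 8ND had 0.03 without scaling and -0.10 to 0.01 with a library left out, and such fits gave -0.18 to 0.03 in 0P vs 0ND, -0.01 to 0.19 in 8ND vs 0ND and -0.07 to 0.15 in the interaction. Timp1 in 8ND vs 0ND had -0.08 with limma-voom, -0.11 without 8ND 1 and 8ND 2, -0.04 with the covariate and -0.19 to 0.41 with a library left out. In the interaction it had 0.09 with limma-voom, 0.16 without both, 0.05 with the block, 0.36 with the covariate and -0.38 to 0.24 with a library left out, and in 8P vs 0P -0.22 to 0.31. Timp2 in 8P vs 0P had -0.01 with RLE and DESeq2, -0.11 with limma-voom, -0.19 with the block and -0.21 to 0.15 with a library left out. It had -0.05 in 8ND vs 0ND and 0.30 in the interaction with the covariate, -0.33 to 0.02 in the interaction and -0.13 to 0.02 in 0P vs 0ND with a library left out. Timp3 in 8P vs 0P had -0.01 with limma-voom and the block, -0.00 with the covariate and -0.15 to 0.08 with a library left out. The cause was not tested. Depth limits Mmp3 and Timp1 most, with at most 30 and 44 counts in a library.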

Other observations

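Of the wider family, 7 genes were too scarce for the filter on low counts, and 4 of these had more than a few counts. Mmp20, enamelysin, which is known from tooth enamel and lies beside Mmp7 on chromosome 9, had 52 counts in 8P and 76 in 0P, against 8 in 8ND and 2 in 0ND, summed over the libraries. Its CPM was 0.760 to 0.982 in 8P and 0.958 to 1.93 in 0P, against 0.0790 to 0.307 in 8ND and 0 to 0.127 in 0ND, so every dysplastic library was above every non-dysplastic one. In a fit without the filter its log2 fold change was 4.69 ± 0.73 in 0P vs 0ND and 2.10 ± 0.57 in 8P vs 8ND (adjusted p = 3.7e-06 and 0.0088, edgeR). Mmp8, the neutrophil collagenase, had 57 counts in 8P and 16 in 0P, against 5 in 8ND and 8 in 0ND, and in that fit it was higher in 8P than in 8ND (log2 fold change, 2.94 ± 0.74, adjusted p = 0.0045) but had an adjusted p of 0.77 in 0P vs 0ND. Mmp27 had 6 counts in 8P and 4 in 0P, against 18 in 8ND and 26 in 0ND (log2 fold change in 0P vs 0ND, -2.71 ± 0.91, adjusted p = 0.041), and its log2 fold change in 8P vs 8ND did not pass (-2.15 ± 0.84, adjusted p = 0.096). Mmp24, a membrane-type enzyme, had 10 counts in 8P and 6 in 0P, against 14 in 8ND and 8 in 0ND, and passed in neither comparison (log2 fold change, -0.97 ± 1.04 in 0P vs 0ND and -0.99 ± 0.87 in 8P vs 8ND, adjusted p = 0.62 and 0.55). The remaining 3 genes, Mmp1a, Mmp1b and Mmp21, are not described further.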
